A study of Mus musculus with 11 samples.

Results

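The genes described here encode the 8 subunits of the BBSome (Bbs1, Bbs2, Bbs4, Bbs5, Bbs7, Ttc8, Bbs9 and Bbip1) and a pair of its regulators, Arl6 and Lztfl1. They are 10 of 21887 protein-coding genes. A peak was taken as theirs when its summit, the position of strongest signal, lay inside the gene or within 10 kb of it (RefSeq genes, GRCm38.p6). That rule gave 12 of 7440 RFX1 peaks, 12 of 9318 RFX3 peaks and 4 peaks of the RFX2 list, the shortest. They merged into 14 regions. The peaks come from chromatin immunoprecipitation with sequencing (ChIP-seq) of RFX1, RFX2 and RFX3 in mouse ependymal cells differentiated ex vivo. All samples were wild-type OF1, and the labels give the source as lateral walls of embryonic brain at age P0. There were 6 ChIP samples, 2 per RFX and each RFX with its own antibody. Input samples with no antibody numbered 5, with 2 each for RFX1 and RFX2 and only 1 for RFX3. The RFX2 antibody came from lot L0413 in one replicate and L0414 in the other. Each deposited list already merges its replicates, so no value carries a replicate error, and the depth behind it is unknown. The lists hold no expression values, so the labelled cell type was not checked against marker expression.

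The BBSome is a coat complex that rides with intraflagellar transport and moves membrane proteins, many of them signalling receptors, into and out of cilia. Mutations in its subunits cause Bardet-Biedl syndrome. Arl6 is the small GTPase that recruits the coat to membranes, and Lztfl1 binds the complex and regulates its entry into the cilium. RFX factors recognise the X-box, an inverted repeat of a short DNA element, through a winged-helix domain, and are known regulators of ciliary genes. Ependymal cells line the brain ventricles and carry many motile cilia.

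Sequence under the summits was examined first, because the X-box is the element that RFX proteins recognise. RefSeq promoter sequences (GRCm38.p6) run from 250 bases before an annotated start to 50 after it, and all 10 genes matched in that table. They were searched for GTTNCC on either strand, and for a pair, meaning GTTGCC followed by GGCAAC after 1 to 3 bases. A pair was counted when at least 10 of its 12 letters matched. A GTTNCC match can be part of a pair. The stretches below hold the pairs found at 4 genes, and at Bbs5 a single element, with the matching elements in capitals. They are written 5′ to 3′ on the strand of the gene.
Bbs1 (chr19:4906598-4906641, minus strand): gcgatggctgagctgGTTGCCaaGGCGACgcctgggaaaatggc
Bbs4 (chr9:59353464-59353493, minus strand): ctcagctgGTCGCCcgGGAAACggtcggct
Bbs7 (chr3:36613406-36613525, minus strand): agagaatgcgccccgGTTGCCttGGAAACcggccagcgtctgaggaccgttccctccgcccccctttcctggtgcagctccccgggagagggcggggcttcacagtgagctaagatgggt
Lztfl1 (chr9:123717596-123717804, minus strand): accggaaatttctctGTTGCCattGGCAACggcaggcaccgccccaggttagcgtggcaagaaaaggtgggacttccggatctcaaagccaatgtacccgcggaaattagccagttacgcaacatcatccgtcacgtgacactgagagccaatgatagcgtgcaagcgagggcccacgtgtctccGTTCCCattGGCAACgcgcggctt
Bbs5 (chr2:69647198-69647220, plus strand): tgacaaagccggcgcGTTGCCtt

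The pairs lay close to the summits. At Bbs1 a pair with 11 of 12 letters and a spacing of 2 bases was centred 0.5 bp from the RFX1 summit, 6.5 bp from the RFX3 summit and 22.5 bp from the RFX2 summit. Lztfl1 held a pair with all 12 letters and one with 11, both with a spacing of 3 bases. The second of these was the nearer one, with its centre 15 bp from the RFX1 summit, 37 bp from RFX3 and 41 bp from RFX2. The other was 155, 133 and 129 bp away, in the same order. At Bbs4 the pair matched 10 letters, 24.5 bp from the RFX1 summit and 13.5 bp from the RFX3 summit. At Bbs7 it matched 11 letters, 24.5 bp from the RFX1 summit and 82.5 bp from the RFX3 summit, and a further GTTNCC match, not in capitals, lay 4.5 bp from the RFX1 summit. At Bbs5 the single GTTGCC was centred 0.5 bp from both the RFX1 and the RFX2 summit and 7.5 bp from that of RFX3, near the edge of the sequence window. 

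The RFX1 summit lay inside the promoter window at 6 members: Bbs1, Bbs4, Bbs5, Bbs7, Bbs9 and Lztfl1. Within 50 bp of it, 5 of these 6 held GTTNCC and 4 held a pair, and Bbs9 held neither. Among all 1074 RFX1 summits in a promoter window the shares were 63.2% and 41.6%. Within 25 bp, 4 of the 6 held GTTNCC and 2 a pair (Bbs1 and Lztfl1), against 54.3% and 35.8% of all. Of the 3 member RFX2 summits in a window, all held GTTNCC and 2 a pair within 50 bp, against 76.5% and 61.2% of all, but within 25 bp only Bbs5 held GTTNCC and none held a pair. Of the 5 RFX3 summits, 3 held GTTNCC and 3 a pair within 50 bp, against 62.4% and 44.1% of all. With so few summits, these member shares are not read as differing from those of all summits. In windows of 300 bases, GTTNCC was found in 45.3% of 32851 RefSeq promoters and a pair in 5.74%. A pair was found in 46.3% of the promoters with an RFX1 summit, in 67.4% of those with an RFX2 summit and in 49.4% of those with an RFX3 summit. Where the RFX1 peak overlapped an RFX2 peak the share was 67.6%, and where it did not, 38.3%. Among the members, Bbs1 and Lztfl1 had a pair and an RFX2 peak, Bbs4 and Bbs7 a pair without one, and Bbs5 an RFX2 peak with a single element. The RFX1 summits of Arl6, Bbs2, Bbip1 and Ttc8 fell outside the windows, and no pair was found in the windows of these genes. That says only that these letters are not in these windows.

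**Figure D1:**
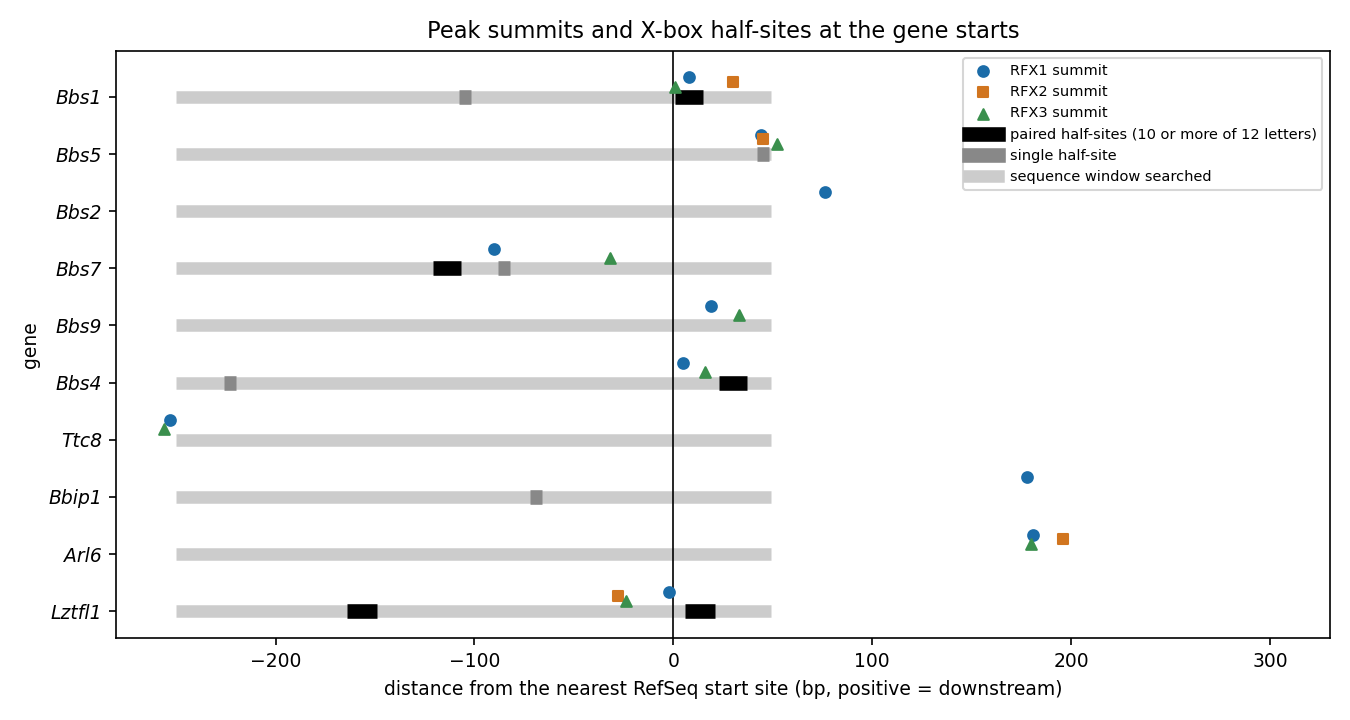
Peak summits and X-box matches around the RefSeq start of each member. The x axis is distance from the nearest start in bp (positive is downstream), and each row is a gene. Coloured markers are summits, black bars are pairs with at least 10 of 12 matching letters, dark grey bars are GTTNCC matches outside a pair and the pale bar is the window searched. Summits of Bbs2, Bbip1 and Arl6 lie downstream of their windows and those of Ttc8 just upstream, and the RFX3 summit of Bbs5 lies just past its window.

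RFX1 was bound at the start of all 10 genes, RFX3 at 8 and RFX2 at 4. Counted as a summit within 1 kb of either annotated end of the gene, called a gene end here, the same rule called 9.05% of all protein-coding genes for RFX1, 7.94% for RFX3 and 2.08% for RFX2. Inside the gene or within 10 kb of it the member counts were again 10, 8 and 4, against 24.9%, 25.3% and 5.93% of all genes. Bbs1, Bbs5, Arl6 and Lztfl1 held all 3 factors. Bbs4, Bbs7, Bbs9 and Ttc8 held RFX1 and RFX3, and Bbs2 and Bbip1 held RFX1 alone. No member lacked a peak and none had RFX3 without RFX1. Of the 2211 genes bound at an end by any RFX, 20.4% had all 3, 47.8% RFX1 and RFX3, 21.2% RFX1 alone and 10.4% RFX3 alone.

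The number of members called depended on list length, since the longer lists reach weaker peaks. When the RFX1 and RFX3 lists were cut by −log10 q to the number of peaks in the RFX2 list, RFX1 was called at 6 members and RFX3 at 4. All genes were then called at 3.10% for RFX1, 2.07% for RFX3 and 2.08% for RFX2. Within 10 kb the counts were also 6, 4 and 4 for RFX1, RFX2 and RFX3, against 6.96%, 5.93% and 5.88% of all genes. At this length the 4 members of RFX2 and the 4 of RFX3 were the same genes, Bbs1, Bbs5, Arl6 and Lztfl1, and RFX1 added Bbs4 and Bbs9. With the better-scoring 50% of each list, RFX1 was called at 10 members, RFX3 at 6 and RFX2 at 4, against 6.29%, 5.71% and 1.13% of all genes. A gene without a peak in a list was not called there, and that does not show that the factor was absent.

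**Figure D2:**
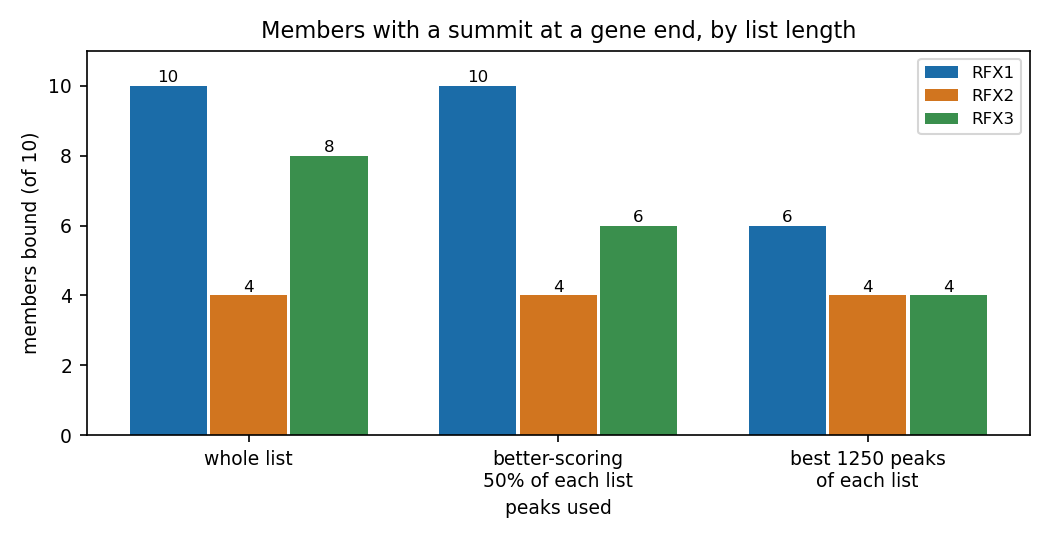
Members with a summit within 1 kb of a gene end, out of 10 (y axis), with the whole list, the better-scoring 50% of each list and each list cut to the length of the RFX2 list (x axis). Bars are RFX1, RFX2 and RFX3. RFX1 goes from 10 to 6 and RFX3 from 8 to 4, while RFX2 stays at 4.

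The strength of a peak is given below by the authors' deposited values: fold enrichment, taken as ChIP signal relative to background, and −log10 q, the peak caller's confidence, with its rank in the list. These values describe peaks within their own list. Bbs1 and Bbs5, the subunits that contact Arl6 and membrane phosphoinositides, respectively, were the only subunits with all 3 factors. Bbs1 (chromosome 19, 4886878 to 4906653) had the highest RFX1 value of the 10 genes, a −log10 q of 162.7 with a fold of 19.4, ranked 98 of 7440. Its RFX2 peak had a −log10 q of 63.4 and a fold of 16.0, ranked 146, and its RFX3 peak 95.7 and 8.81, ranked 311 of 9318. Bbs1 therefore held the highest RFX1 and RFX2 values among the members, and the second highest of RFX3. Its summits lay 8, 30 and 1 bp downstream of the start for RFX1, RFX2 and RFX3. They also lay 603 to 632 bp from an end of Dpp3, a dipeptidyl peptidase gene. That is the 3′ end of Dpp3, whose starts were at least 21344 bp from the summits.

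Bbs5 (chromosome 2, 69646848 to 69667571) had an RFX1 −log10 q of 131.7 and a fold of 13.6, ranked 275. The RFX2 values were 47.9 and 10.8, ranked 271, and those of RFX3 58.4 and 4.28, ranked 1091. The summits of the 3 factors lay within 8 bp of each other, 44 to 52 bp downstream of the start. By fold, the RFX3 peak of Bbs5 stood low in its list, in the top 87.7%, while by −log10 q it was in the top 11.7%.

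Like Bbs4, Ttc8 and Bbip1, the subunits Bbs2, Bbs7 and Bbs9 had no RFX2 peak. Of all protein-coding genes, 2.08% were called for RFX2 at an end. Bbs2, Bbs7 and Bbs9 form the core on which the other subunits assemble. Bbs9 (chromosome 9, 22475559 to 22888283) had the strongest RFX1 peak of the 3 at its start, with a fold of 10.9 and a −log10 q of 92.8, against 4.62 and 39.7 for RFX3. Bbs7 (chromosome 3, 36573142 to 36613492) followed with 10.1 and 57.3 for RFX1 and 3.04 and 14.9 for RFX3. The RFX1 and RFX3 summits of Bbs7 lay 58 bp apart, the widest spread among the members, 90 and 32 bp upstream of the start. Bbs2 (chromosome 8, 94067952 to 94099369) had only an RFX1 peak, with a −log10 q of 30.7, just above the RFX1 list median of 29.1, and a fold of 6.21, below the median of 7.51. Its summit lay 76 bp downstream of the start but 936 bp from the end of the annotated gene span, so it was not called within 500 bp of a gene end. With that limit RFX1 was called at 9 members and at 7.38% of all genes.

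Bbs4 and Ttc8 encode subunits built of tetratricopeptide repeats, and Bbip1 is the smallest subunit. Bbs4 (chromosome 9, 59321966 to 59353508) had RFX1 values of 90.1 for −log10 q and 11.3 for fold, and RFX3 values of 48.3 and 6.96. Its summits lay 5 and 16 bp downstream of the start. Ttc8 (chromosome 12, 98920537 to 98983250) was much weaker, with 31.4 and 7.98 for RFX1 and 12.1 and 3.88 for RFX3. By −log10 q that RFX3 peak ranked 7304 of 9318, in a list whose median was 19.9 and lowest value 8.87. The summits of Ttc8 lay 253 and 256 bp upstream of the start, farther from a start than any other summit at a member gene end.
Bbip1 (chromosome 19, 53929656 to 53944627) had an RFX1 peak only, whose −log10 q was 61.9 and fold 7.65. Its summit lay 178 bp downstream of the Bbip1 start and 143 bp from a start of Shoc2, a scaffold gene of the Ras pathway that is read in the opposite direction. The peak therefore sits between starts of these neighbours and cannot be assigned to either from position.

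Both regulators held all 3 factors. Arl6 (chromosome 16, 59612949 to 59639409) had the highest RFX3 −log10 q of the members, 96.6 with a fold of 7.51 (ranked 303). Its RFX1 peak had 141.5 and 15.5 (ranked 205) and its RFX2 peak 39.3 and 7.92 (ranked 401), the lowest RFX2 value of the 4. The summits lay 180 to 196 bp downstream of the nearer of its annotated starts, inside the gene. Lztfl1 (chromosome 9, 123694404 to 123717625) had RFX1, RFX2 and RFX3 −log10 q of 145.7, 55.6 and 70.0 and folds of 14.6, 11.9 and 5.05. Its peaks were the widest at member gene ends in each list, at 603, 762 and 557 bp, against list medians of 319, 416.5 and 256 bp. The summits lay 2 to 28 bp upstream of the start, between the pairs printed above.

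**Figure D3:**
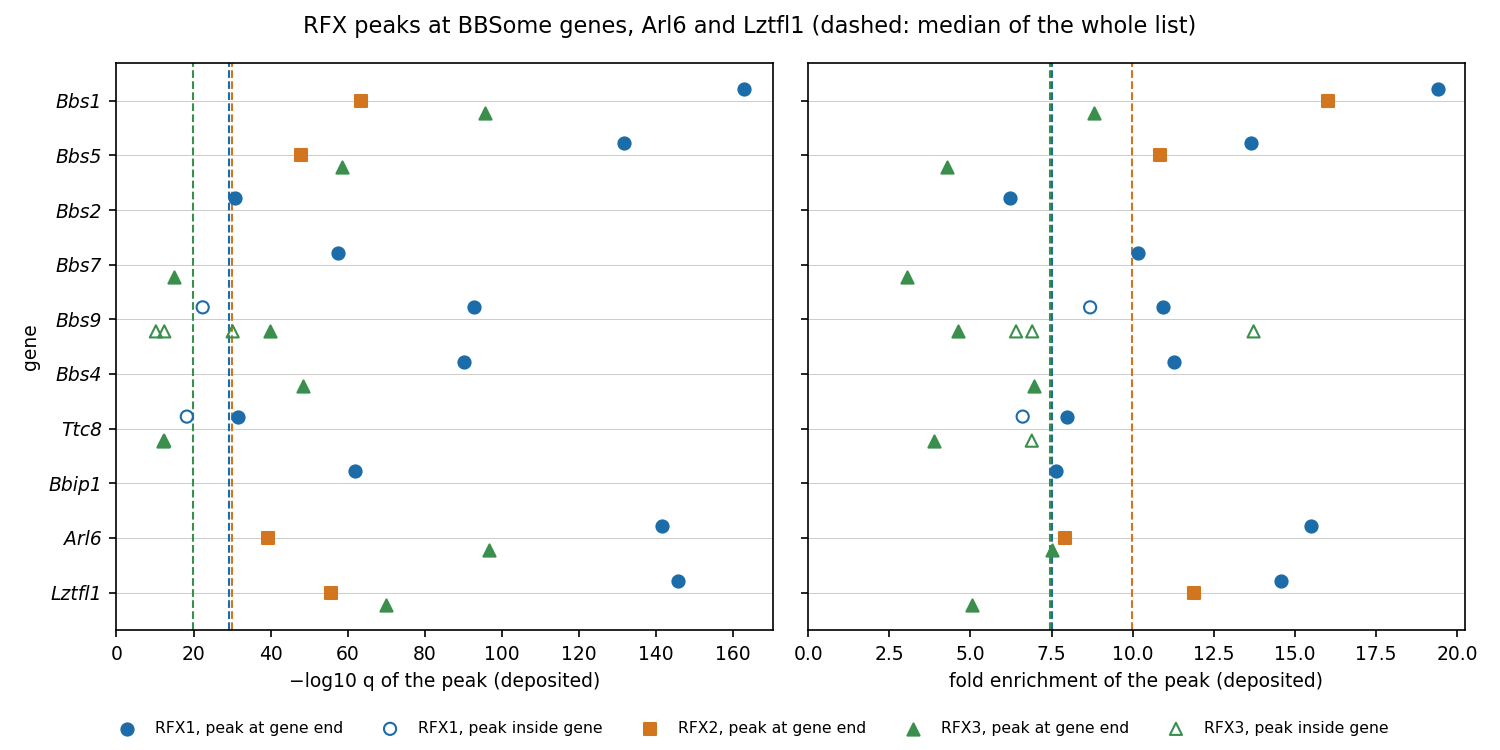
Deposited −log10 q (left) and fold enrichment (right) of each peak of the 10 genes (rows). Filled markers are peaks within 1 kb of a gene end, open markers are peaks inside the gene away from its ends, and dashed lines are the medians of the whole RFX1, RFX2 and RFX3 lists. RFX1 is above its −log10 q median at all 10 gene ends, while RFX3 is below its fold median at 6 of 8.

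The genes with an RFX2 peak were those with the strongest RFX1 peaks. The RFX1 −log10 q ran from 131.7 to 162.7 at the 4 members with all 3 factors, from 31.4 to 92.8 at the 4 with RFX1 and RFX3, and was 30.7 and 61.9 at the 2 with RFX1 alone. The first range did not overlap the others, but the last fell partly within the second: Bbip1 at 61.9 had no RFX3 peak, while Bbs7 at 57.3 and Ttc8 at 31.4 had one. Across the whole RFX1 list, 88 gene-end peaks had a −log10 q in the first range, of which 88.6% overlapped an RFX2 peak and 100% an RFX3 peak. Of 725 in the second range, 12.55% overlapped RFX2 and 86.2% RFX3. Of 441 between the values of Bbs2 and Bbip1, 4.08% overlapped RFX2 and 77.8% RFX3. For RFX2, overlap was thus most frequent in the first range over all gene ends of the list as well. For RFX3, most peaks between the values of Bbs2 and Bbip1 overlapped, unlike the peaks of these members. Those values lie largely within the second range, so the last counts share many peaks. Nothing particular to the BBSome genes was tested. Overlap means at least 1 shared bp. Over all peaks, 16.6% of RFX1 peaks overlapped RFX2 and 99.0% of RFX2 peaks overlapped RFX1, and 74.2% of RFX1 peaks overlapped RFX3 and 59.3% of RFX3 peaks overlapped RFX1. Between RFX2 and RFX3 the shares were 97.9% of RFX2 peaks and 13.2% of RFX3 peaks.

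The members stood high in the lists by −log10 q but not by RFX3 fold. At gene ends the members had a median −log10 q of 91.5 (RFX1), 51.8 (RFX2) and 53.4 (RFX3), against 48.0, 31.9 and 31.6 for all peaks at gene ends. Against these gene-end medians, 8 of 10 RFX1 peaks (not Bbs2 and Ttc8), all 4 RFX2 peaks and 6 of 8 RFX3 peaks (not Bbs7 and Ttc8) had a higher −log10 q. Against the medians of the whole lists (29.1, 30.1 and 19.9), the counts were 10 of 10, 4 of 4 and 6 of 8. Median folds were 11.1, 11.4 and 4.84, against 8.21, 8.74 and 4.91 at all gene ends. In RFX3 6 of the 8 folds lay below the median of the whole list, 7.45, and those of Bbs1 and Arl6 lay above it. Low fold with high −log10 q was a property of RFX3 gene-end peaks at large: peaks elsewhere had a median fold of 7.84 and a median −log10 q of 18.7. The RFX2 list showed the same direction, with a median fold of 8.74 at gene ends against 10.4 elsewhere and a median −log10 q of 31.9 against 29.8. In the RFX1 list the median fold was higher at gene ends than elsewhere (8.21 against 7.37).

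**Figure D4:**
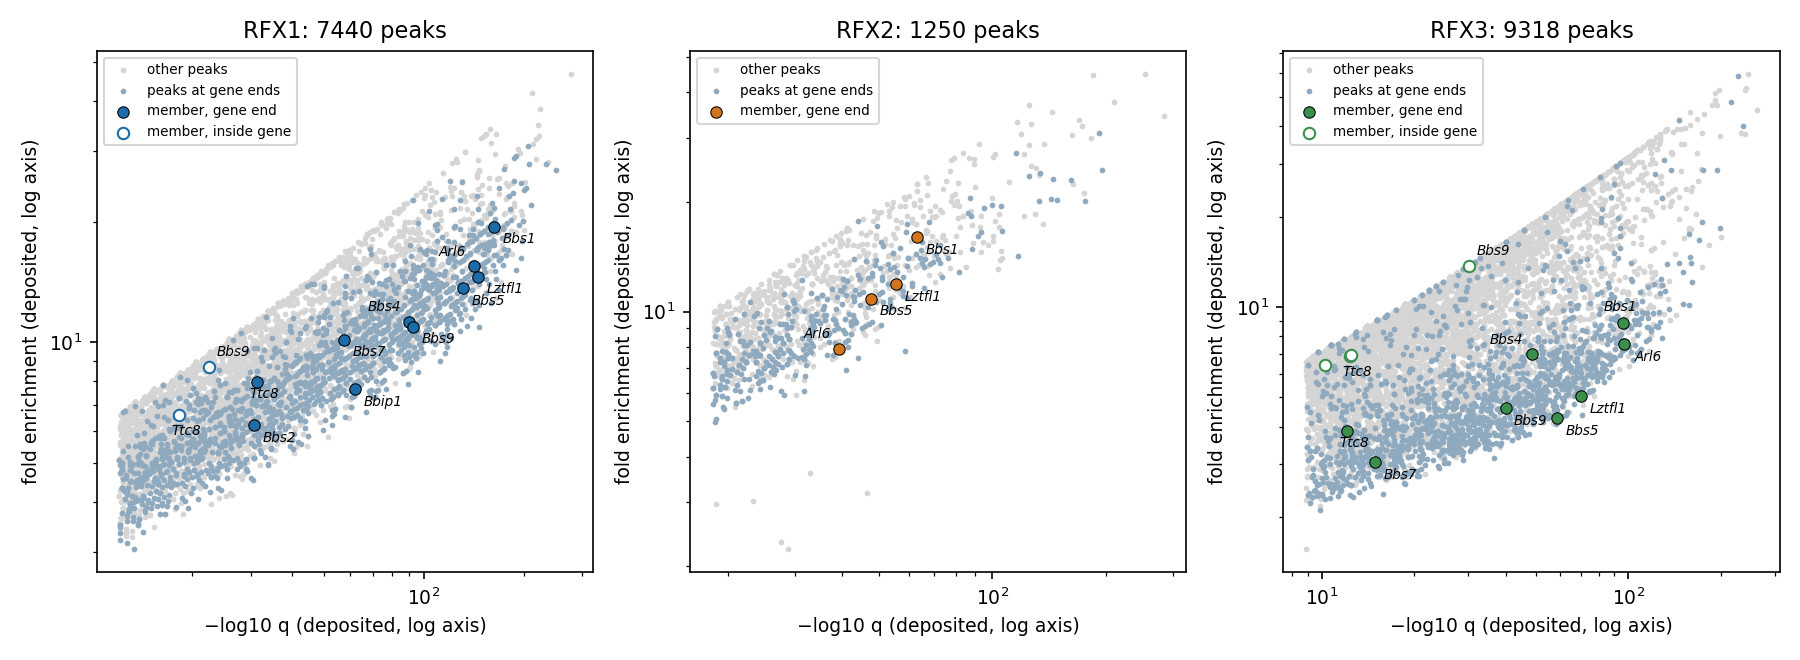
Fold enrichment against −log10 q (both on log axes, deposited values) for every peak of the RFX1, RFX2 and RFX3 lists. Large filled markers are member peaks at gene ends, open ones are member peaks inside genes, and where a gene has several open markers only its highest −log10 q is named. In the RFX3 panel the gene-end peaks of Bbs5, Lztfl1 and Bbs9 lie along the lower edge and the inner peaks of Bbs9 along the upper edge.

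Besides the 10 regions at gene ends, 4 regions lay inside Ttc8 and Bbs9, and no other gene of the RefSeq table spanned these summits. Exon boundaries were not used here. In Bbs9, 3 regions lay between 357968 and 364253 bp downstream of its start, at least 48315 bp before its far end. The strongest, at chromosome 9, 22839804 to 22840200, was shared by RFX1 (−log10 q 22.4, fold 8.69) and RFX3 (30.1, 13.7), with summits 1 bp apart. Its RFX3 fold was higher than the 4.62 at the start of Bbs9, although its −log10 q was lower. The remaining regions in Bbs9 had RFX3 alone, with −log10 q of 12.40 and 10.22 and folds of 6.90 and 6.40. In Ttc8 a region 44931 bp downstream of the start had RFX1 (18.3, 6.61) and RFX3 (12.4, 6.89), with summits 10 bp apart. The RFX3 −log10 q of this inner peak was about that of the Ttc8 start, at 12.4 against 12.1, with a fold of 6.89 against 3.88. These inner sites held no RFX2 peak.

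The 10 kb limit did not decide any of these calls. The farthest member summit outside its gene was the RFX3 summit 219 bp from Ttc8. Among the sites reported here, the nearest beyond the limit was an RFX1 summit at Bbs1, which lay 47456 bp from it, with a fold of 5.16 and a −log10 q of 30.8.

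Other genes of the pathway were bound unevenly by group, as the plot of gene groups shows. The groups are small, and differences between them were not tested. Mkks, Bbs10 and Bbs12 encode chaperonin-like proteins that help assemble the BBSome core. Only Bbs12 had peaks at an end, of all 3 factors (−log10 q of 97.4, 20.2 and 89.1 for RFX1, RFX2 and RFX3). Mkks and Bbs10 had no peak within 10 kb. The Bbs12 summits lay 103, 108 and 156 bp upstream of its start, in the same order. They were nearer, at 5, 0 and 48 bp, to the start of Cetn4, a centrin gene read in the opposite direction. These peaks therefore cannot be assigned to either gene from position. Of 9 matched genes for other Bardet-Biedl proteins, RFX1 and RFX3 were each bound at a gene end in 6 and RFX2 in 2. Of all protein-coding genes, 9.05%, 7.94% and 2.08% were called at an end for RFX1, RFX3 and RFX2. Mks1, a transition zone gene, had all 3 factors with −log10 q of 166.3, 39.3 and 88.2, above Bbs1 in the RFX1 list. Sdccag8, a centrosomal gene, also had all 3 (111.7, 18.5 and 33.7). Its RFX2 peak was near the floor of that list, whose lowest −log10 q was 18.2. Cep290, Wdpcp, Ift27 and Ift172 had RFX1 and RFX3 at an end. Ift74 had both inside its span at an annotated start, 8 and 16 bp from it. Trim32 and Scaper had no peak within 10 kb, and Cfap418 did not match the gene table.

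Of 9 genes for BBSome partners and recruiters, RFX1 was bound at an end in 7, RFX3 in 4 and RFX2 in 1. The shares of all protein-coding genes were 9.05%, 7.94% and 2.08%, in the same order. Cep19, which acts in the start of ciliogenesis at the mother centriole, had all 3 factors (−log10 q of 132.8, 36.9 and 74.1). Rabl2, a small GTPase gene that works with Cep19, had RFX1 (73.9) and RFX3 (39.2). Rab3ip encodes Rabin8, the exchange factor for Rab8. It had RFX1 and RFX3 peaks with folds of 12.6 and 19.1, the latter above the 13.7 that was the highest RFX3 fold of a member peak. Tulp3, an adaptor for receptor entry, had RFX1 and RFX3, while Pcm1, Ccdc28b and Arl13b had RFX1 alone. Rab8a and Cep131 had no peak within 10 kb. Of 7 genes for cargo receptors and their adaptors (Sstr3, Mchr1, Gpr161, Smo, Npy2r, Drd1 and Arrb2), none had a peak of any RFX within 10 kb. All genes had one in 24.9%, 5.93% and 25.3% for RFX1, RFX2 and RFX3, and with 7 genes nothing is read from a count of 0.

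**Figure D5:**
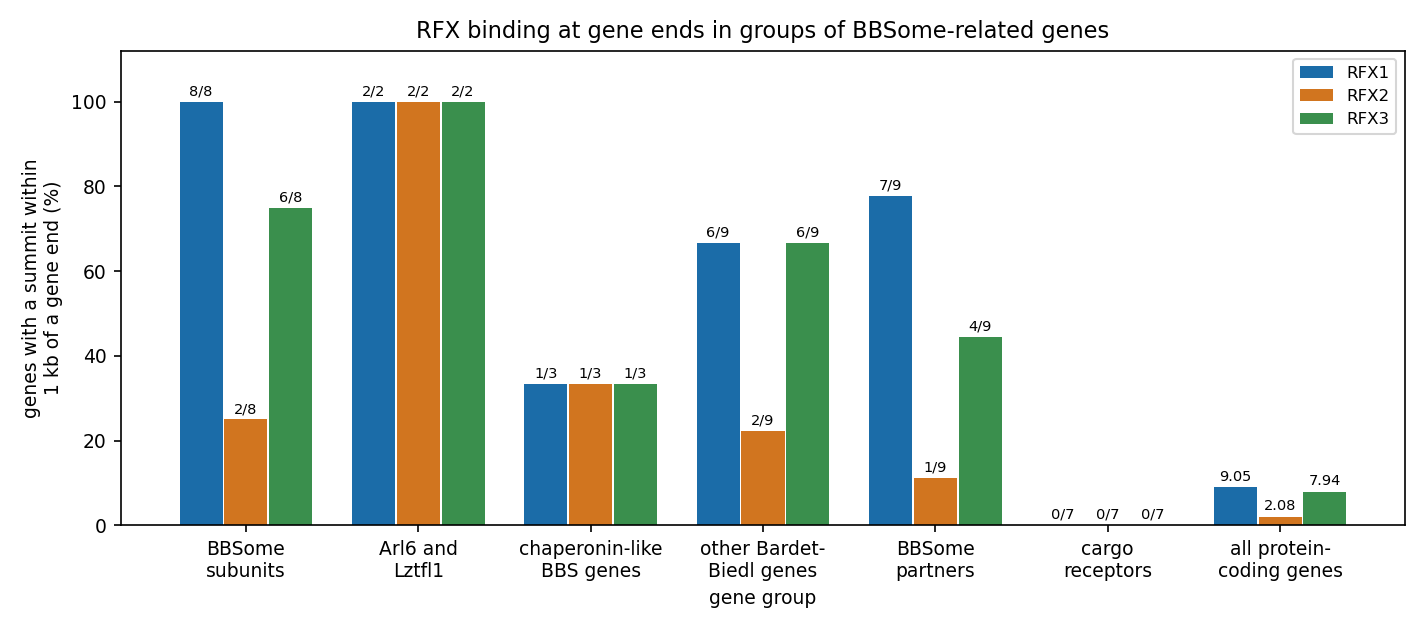
Share of genes with a summit within 1 kb of a gene end (y axis, %) in each group of BBSome-related genes and in all protein-coding genes (x axis). Bars are RFX1, RFX2 and RFX3, with bound over matched genes above each bar. RFX1 is at 8 of 8 BBSome subunits, against 9.05% of all protein-coding genes.

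Among genes bound by all 3 factors at an end, those most like Bbs1, Bbs5, Arl6 and Lztfl1 in fold were sought in the other 447. Likeness was the Euclidean distance of log2 fold in the 3 lists from the median of the 4 members, which had folds of 15.02, 11.4 and 6.16 for RFX1, RFX2 and RFX3. The nearest were Cfap20 (distance 0.18, folds 16.2, 12 and 6.66), Qars (0.22) and Ift22 (0.22), followed by Klhl18 and Kif9 (both 0.23). Klhl18 and Kif9 are both on chromosome 9 and had the same folds in each list. They may therefore share the same peaks and are not read as separate cases. Cfap20 is an axonemal protein gene, Ift22 encodes an intraflagellar transport GTPase and Qars a tRNA synthetase. Folds are the authors' peak values, and the distance says nothing about shared function.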

How the data were processed

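Lists of reproducible peaks for RFX1, RFX2 and RFX3 were used, each merged over 2 ChIP replicates by the authors. Input samples have no file of their own here. Per the submitters' processing notes, build GRCm38 was used, with the tools MACS2 2.0.10.20130520, Bowtie 0.12.7 and CASAVA 1.8.2; what each did, and how a peak counted as reproducible, the sources used here do not say. A deposited score accompanies each peak and equals the whole part of 10 times −log10 q. The deposited fold enrichment is a ratio, and the deposited −log10 q and −log10 p are the peak caller's; the −log10 p, 1 column in each list, was not used. Read depth is unknown, so precision cannot be stated.

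Summits were matched to RefSeq genes and starts (GRCm38.p6) in Python 3.11.15 with pandas 2.3.3, after functions were tested on simulated data. Starts were known for 17492 of 21887 protein-coding genes. Summit windows were cut at the edge of the promoter sequence. Alternatives were other windows, shorter lists, starts only, nearest gene only, other overlaps and other sequence windows. The members, gene lists and tests were chosen with earlier results of these data known; the paired X-box measure was added after the sequences were read. All members are named; other genes are named if they are in a fixed list, share a member peak or are nearest by fold. With members chosen this way and replicates merged, no significance test was made. A gene of the other Bardet-Biedl list and a site beyond 10 kb are not reported here.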

Additional observations from a re-analysis of the deposited data

How the results depend on the processing

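Of 54 recalculations of the counts and medians, 47 stayed within 1.5 times the reported count or within the spread among members. Some of the 47 could not change: the RFX2 list already had the cut length, and each member in it had a single peak there. With the lists cut to the length of the RFX2 list, members called within 10 kb, and likewise at a gene end, fell from 10 to 6 for RFX1 and from 8 to 4 for RFX3; the shorter list is the cause by construction. Members with GTTNCC near the RFX2 summit fell from 3 to 1 with 25 bp either side, a narrower window. In that window members with a pair, an alternative chosen after seeing the data, fell from 4 to 2 for RFX1 and from 2 to 0 for RFX2. Taking the peak nearest a gene end in place of the best one could change only values of Ttc8 and Bbs9. Every other member had at most a single peak per list. Of 44 single values 42 stayed identical, most of them for this reason. The exceptions were both for RFX3 at Ttc8, where the fold went from 6.89 to 3.88 and the −log10 q from 12.4 to 12.1. No paired analysis was possible because each list merges its replicates. For the same reason no replicate could be left out, and the number of reads that limits each call is unknown.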

Other observations

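Beyond the 10 kb limit, the next site along the chromosome scored higher than the member's own start at several genes. They were chosen here because of these values. For Bbip1, which had RFX1 alone, the next site held all 3 factors and lay 76801 bp away by its RFX1 summit, inside Rbm20, an RNA-binding protein gene. RFX1, RFX2 and RFX3 had −log10 q of 141.9, 80.4 and 112.7 there and folds of 19.5, 20.2 and 19.5, against an RFX1 −log10 q of 61.9 at Bbip1. For Ttc8, the next RFX1 and RFX3 summits lay 124585 and 124584 bp away inside Eml5, a microtubule-associated protein gene. They had −log10 q of 56.2 and 49.2 and folds of 15.6 and 17.5, where the Ttc8 start had −log10 q of 31.4 and 12.1. For Bbs9 the next site lay 64034 bp away inside 9530077C05Rik, with RFX1 and RFX3 −log10 q of 132.8 and 60.9 against 92.8 and 39.7 at Bbs9. Which gene any of these sites acts on was not tested.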
